A study of Mus musculus with 6 samples.

Results

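Oxidative phosphorylation is carried out by 5 enzyme complexes of the inner mitochondrial membrane whose subunits are encoded partly in mitochondrial DNA and partly in the nucleus. The subunit genes examined here were chosen by symbol: those starting mt-Nd, mt-Co, mt-Atp or mt-Cytb for mitochondrial DNA (mtDNA), and Nduf (without the Ndufaf assembly factors), Uqcr, Cox4 to Cox8 or Atp5, together with Sdha, Sdhb, Sdhc and Sdhd, for the nucleus. The rule found 101 of the 31253 genes in the count matrices, 13 encoded in mtDNA and 88 in the nucleus. The data are single-cell RNA-seq counts of peripheral blood mononuclear cells from male mice 12 to 13 weeks old, in 6 libraries, 3 per group. The Con group received saline by intraperitoneal injection, and the T2D group, the series' HFD/STZ model of type 2 diabetes (high-fat diet and streptozotocin, a toxin of pancreatic beta cells), received streptozotocin by the same route. The labels name no diet for the Con mice, no strain and no number of mice behind a library, so p-values measure the spread between these libraries.

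In the respiratory chain, complexes I and II feed electrons into the ubiquinone pool, complex III passes them to cytochrome c, and complex IV, cytochrome c oxidase, reduces oxygen. Complexes I, III and IV pump protons, and complex V, the ATP synthase, uses the gradient to make ATP. Complex II is wholly nuclear-encoded, while the others join nuclear subunits to a catalytic or proton-translocating core from mtDNA. Resting lymphocytes of the blood rely largely on this pathway, whereas neutrophils hold few mitochondria and make ATP mostly by glycolysis.

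The 6 libraries held 49407 cell barcodes, of which 49025 were kept (a minimum of 200 genes detected and a maximum of 20% of UMIs from mtDNA). A UMI (unique molecular identifier) counts 1 captured mRNA molecule, read from its 3′ end. Library totals ranged from 23574052 to 32321855 UMIs. Cells were assigned to classes by marker UMIs (at least 2 of the own list and at most 1 of each other list), which placed 75.7% to 82.2% of a library's cells. The 9 classes with at least 30 cells in every library were B cells, CD4, CD8 and other T cells, NK cells, classical and non-classical monocytes, neutrophils and platelets. Eosinophils (0 to 6 per library) and dendritic cells (0 to 5) were too few. In each of these 9 classes the independent check markers of its own type were detected in every library, and the 4 platelet check markers summed to 20333 to 25791 CPM (counts per 1000000 UMIs of the class) in platelets against 12.1 to 26.5 in CD4 T cells. Any pair of libraries shared 65 to 89 barcodes.

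The 13 mtDNA-encoded members did not contribute alike. In the kept cells they held 8099005 UMIs, and 7 of them, mt-Nd1, mt-Nd2, mt-Nd4, mt-Nd5 and mt-Nd6 of complex I, mt-Cytb of complex III and mt-Co1 of complex IV, held 99.9% of these. In UMIs, of which a molecule gives 1 whatever its length, mt-Co1 came first at 1489463, mt-Cytb next at 1403722 and mt-Nd6 at 978813. Per kilobase of gene the order differed, with mt-Nd6 at 1885960, mt-Nd1 at 1443670 and mt-Cytb at 1227030. The other 6, mt-Co2, mt-Co3, mt-Atp6, mt-Atp8, mt-Nd3 and mt-Nd4l, together held 10621 UMIs, or 0.131%. These include both mtDNA-encoded complex V subunits and the other complex IV core subunits, so the mtDNA-encoded share below is in practice a share of the first 7 genes.

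For 5 of those 6 genes, the annotated mouse transcripts hold a nuclear pseudogene that matches nearly the whole gene. mt-Co2 (chrM:7013-7696, plus strand, GRCm38, the assembly also called mm10) aligned over 99.6% of its length to Gm28661 (chr1:24614885-24615565, minus strand) with no mismatch. mt-Atp6, mt-Co3 and mt-Nd4l matched Gm10925, Gm28437 and Gm10222 on chromosome 1 without a mismatch, and mt-Nd3 matched Gm28438 there with 1. mt-Atp8 had no copy of at least 100 bases at 90% identity or more. Among the 7 abundant genes, mt-Nd1 had none either, mt-Nd4 was identical to Gm28439 over its first 876 of 1378 bases, and the last 483 bases of mt-Co1 were 99.8% identical to Gm29216. mt-Nd6 (chrM:13552-14070, minus strand) and mt-Cytb (chrM:14145-15288, plus strand) had full-length copies on chromosome 4, Gm11408 (chr4:80003396-80003914, minus strand) and Gm11410 (chr4:80003989-80005131, plus strand), at 93.6% and 92.9% identity. The last 60 aligned bases of 3 such pairs are shown because the 3′ end is what the libraries read. They are written 5′ to 3′ on the gene's strand, and capitals mark the bases that differ within a pair.
mt-Co2: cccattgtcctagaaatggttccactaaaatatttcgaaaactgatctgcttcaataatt
Gm28661: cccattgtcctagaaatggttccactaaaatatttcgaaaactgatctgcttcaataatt
mt-Nd6: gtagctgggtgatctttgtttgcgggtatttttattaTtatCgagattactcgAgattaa
Gm11408: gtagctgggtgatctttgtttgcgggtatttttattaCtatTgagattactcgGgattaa
mt-Cytb: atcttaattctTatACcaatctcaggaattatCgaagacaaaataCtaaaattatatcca
Gm11410: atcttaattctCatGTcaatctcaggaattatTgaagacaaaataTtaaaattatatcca
The mt-Co2 pair had 0 differences in this window, the mt-Nd6 pair 3 and the mt-Cytb pair 5. The labels do not say how reads matching both places were counted. Counts of the 5 genes with a nearly full-length copy, and of mt-Co1, whose last 483 bases have a near-identical one, are therefore uncertain. mt-Nd6 lies on the strand opposite to mt-Nd5 and overlaps its end by 14 bases. Whether the counting used strand is not stated, so reads of the overlap cannot be told apart. Beyond the overlap too, mt-Nd6 counts may include molecules of the opposite strand, that of mt-Nd5. This limit holds for every mt-Nd6 value given here.

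**Figure D1:**
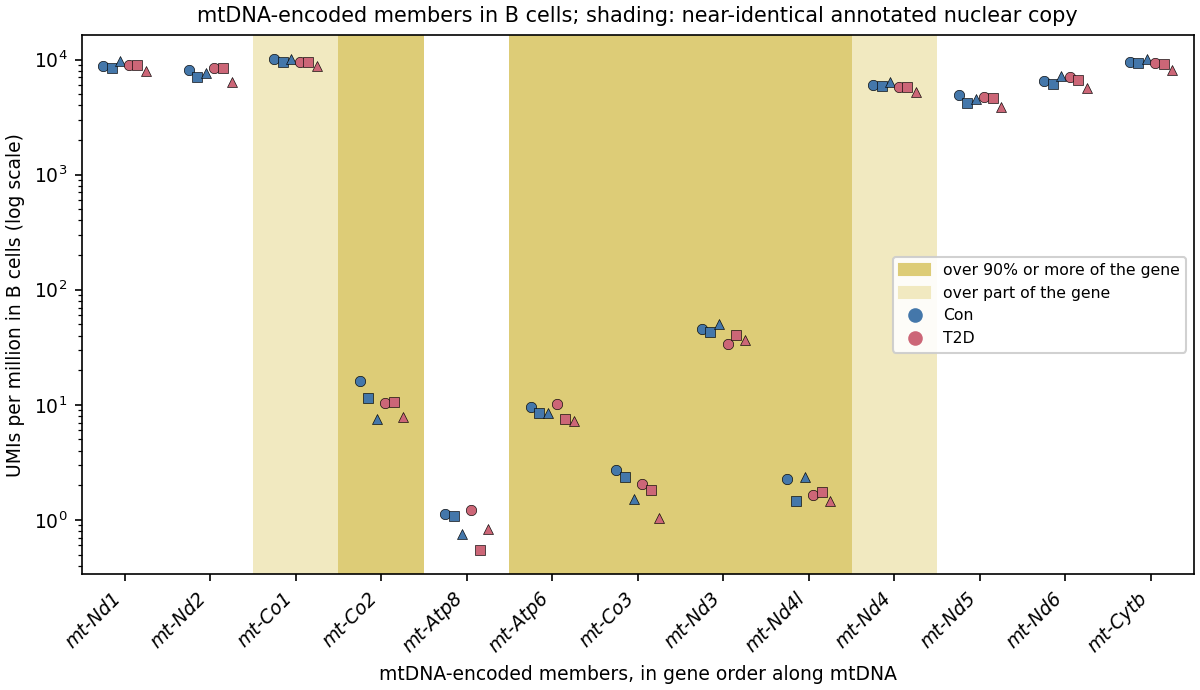
CPM of the 13 mtDNA-encoded members in B cells, on a log axis, with 1 point per library (blue Con, red T2D) and shading where an annotated nuclear pseudogene is at least 99% identical. The 5 genes with a copy over 90% or more of their length, and mt-Atp8, lie far below the 7 others.

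The 88 nuclear members held 1382246 UMIs. They were grouped into complexes by symbol alone, so that every Nduf gene, Ndufa4 included, counts as complex I. By this grouping 404581 UMIs belonged to 39 complex I genes, 58312 to 4 of complex II and 136786 to 8 of complex III. Complex IV had 384226 in 19 genes and complex V 398341 in 18. With the most UMIs in B cells for each complex, Ndufa2 (an accessory subunit of complex I), Sdha (the flavoprotein of succinate dehydrogenase), Uqcrh (the hinge protein of complex III), Cox7a2l (a factor of supercomplex assembly grouped here by its symbol) and Atp5a1 (the alpha subunit of the ATP synthase) led their groups. Among genes with tissue-specific isoforms, the broadly expressed form was detected and the alternative form scarcely. Cox4i1 had 57199 UMIs and the lung isoform Cox4i2 had 0. Cox6a1 had 40466 against 81 for the muscle isoform Cox6a2, Cox8a 36742 against 6 for Cox8b and 1 for Cox8c, Cox6b1 37025 against 351 for the testis isoform Cox6b2, Cox7a2 14256 against 156 for the muscle isoform Cox7a1, and Ndufa4 19997 against 1 for Ndufa4l2. In all, 3 members had 0 UMIs in the kept cells (Cox4i2, Cox7b2 and 1 of 2 gene identifiers named Atp5o) and 11 nuclear members had fewer than 1000. Ndufb1-ps and Cox5b-ps, which carry pseudogene-type symbols, entered by their prefix.

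Cell classes differed more in the mtDNA-encoded share than in the nuclear-encoded share. Over all 6 libraries, mtDNA-encoded members made up 5.22% ± 0.347 of all UMIs in B cells (SD, n = 6), 5.30% ± 0.525 in CD4 T cells, 5.49% ± 0.535 in CD8 T cells and 5.32% ± 0.513 in other T cells, with ranges that overlapped. NK cells (2.78% ± 0.202), classical monocytes (2.95% ± 0.197) and non-classical monocytes (2.43% ± 0.129) lay below every lymphocyte library of the first 4 classes. Platelets stood at 1.39% ± 0.378 and neutrophils at 0.480% ± 0.0759, and no neutrophil library reached the lowest platelet library. Nuclear-encoded members took 0.471% ± 0.0418 in neutrophils and 1.10% ± 0.0565 in classical monocytes, the lowest and highest of the 9 classes. The ratio of the 2 genomes' UMIs thus ran from 1.02 ± 0.142 mtDNA-encoded per nuclear-encoded UMI in neutrophils to 7.43 ± 0.415 in B cells.

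**Figure D2:**
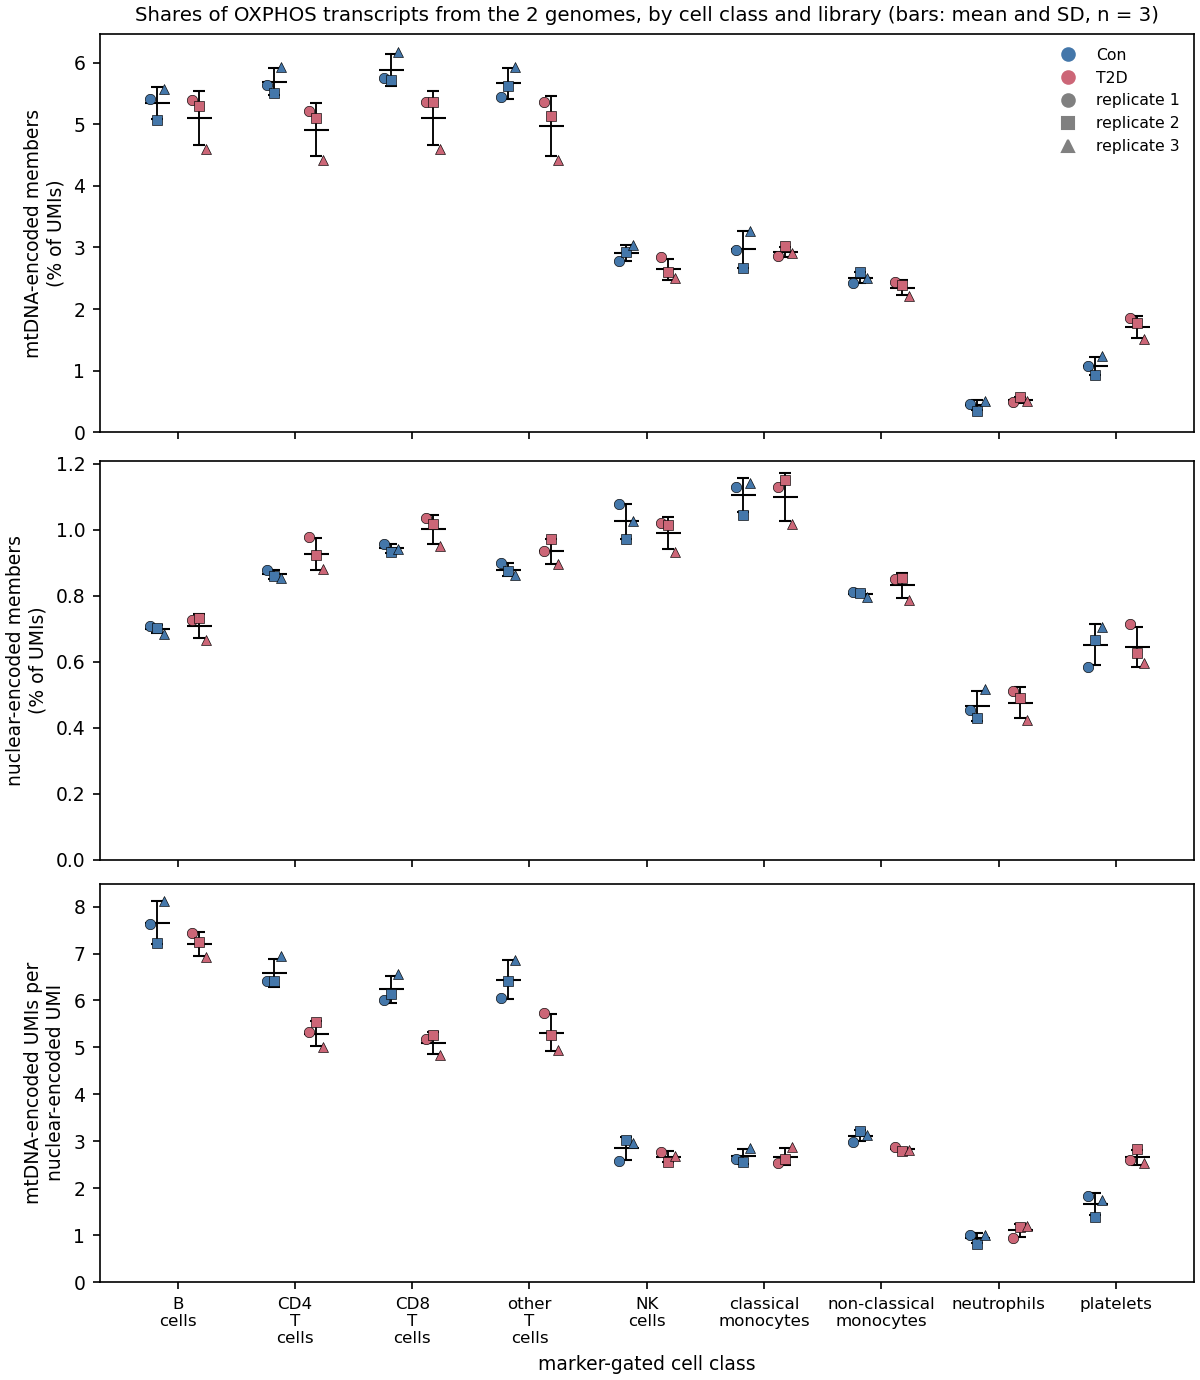
Share of UMIs from mtDNA-encoded members, share from nuclear-encoded members, and the ratio of the 2, per library in 9 cell classes (points: libraries; bars: mean and SD of 3). The T2D libraries lie below the Con libraries in mtDNA-encoded share in CD4, CD8 and other T cells and above them in platelets.

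Single members were compared between each class and the mean of the other 8 with edgeR's quasi-likelihood test and the library as a block, with Benjamini-Hochberg adjustment over 9102 genes and a threshold of 0.05. In neutrophils 38 of 77 nuclear members tested were lower and 6 higher, where 26.8% of all genes were lower and 28% higher. The lowest was Atp5g2, a c-ring subunit gene of the ATP synthase, at a log2 difference of -2.30 (SE 0.867, adjusted p = 0.019), and all 8 mtDNA-encoded members tested were lower, with mt-Nd6 at -2.83. In classical monocytes 55 of 77 nuclear members were higher and 0 lower, against 32.1% of all genes higher and 16.7% lower. The complex I subunits Ndufs8 and Ndufc2 led there at 1.76 (SE 0.259) and 1.37 (SE 0.143). In platelets 36 were lower and 8 higher, against 38.2% of all genes lower and 13.8% higher, and the higher ones included Atp5e, the epsilon subunit of the ATP synthase, at 3.06 (SE 0.107) and Cox5a at 2.47 (SE 0.155). CD8 T cells had 47 of 77 nuclear members higher, against 47.1% of all genes, with Atp5g2 at 1.29 (SE 0.188) and Ndufa10 at 1.06 (SE 0.0779). B cells had 41 lower and 9 higher, where 22.1% of all genes were lower and 49.4% higher. Of 77 nuclear members, CD4 T cells had 34 higher (background 45.2%), other T cells 27 (43.2%), NK cells 32 (34.8%) and non-classical monocytes 30 (36.9%). In the same order 16, 11, 8 and 4 were lower, and 6 in CD8 T cells, with no share of all genes given for these. Cox7a2l was higher in CD4 T cells, at 0.82 (SE 0.0519), and lower in NK cells, at -0.90 (SE 0.0814). Its CPM over all libraries was 496 in CD4, 498 in CD8 and 464 in other T cells.

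Between Con and T2D, the T cell classes showed a lower mtDNA-encoded share. In CD4 T cells it was 5.64%, 5.51% and 5.93% of UMIs in the Con libraries and 5.21%, 5.11% and 4.42% in the T2D libraries, or 5.69% ± 0.214 against 4.91% ± 0.431 (SD, n = 3), and the groups did not overlap. The nuclear-encoded share of the same cells was 0.864% ± 0.0130 in Con and 0.927% ± 0.0482 in T2D, with every T2D library above every Con library. The groups overlapped in cells of 1000 to 5000 UMIs (0.865% ± 0.0143 and 0.916% ± 0.0509). They also overlapped without effector or regulatory transcripts, a setting described below (0.862% ± 0.0115 and 0.898% ± 0.0530). With mtDNA-encoded and ribosomal protein genes out of the denominator, Con libraries stood at 1.13%, 1.11% and 1.11%. T2D libraries then stood at 1.23%, 1.16% and 1.09%, again with overlap. The nuclear-encoded share was 0.944% ± 0.0129 and 1.00% ± 0.0448 in CD8 T cells and 0.879% ± 0.0187 and 0.934% ± 0.0386 in other T cells, with overlap in both. In CD4 T cells the shares gave 6.59 ± 0.305 mtDNA-encoded UMIs per nuclear-encoded UMI in Con and 5.29 ± 0.262 in T2D, a log2 ratio of -0.32. In CD8 T cells the mtDNA-encoded share was 5.76%, 5.72% and 6.18% in Con and 5.36%, 5.36% and 4.59% in T2D, again without overlap, and the 2-genome ratio went from 6.24 ± 0.289 to 5.09 ± 0.227. Other T cells, with no Cd4 or Cd8 UMI or with both, had 5.66% ± 0.247 in Con and 4.97% ± 0.486 in T2D, without overlap, although the groups overlapped with a stricter gate (at least 3 own marker UMIs and none of another list; 5.64% ± 0.254 and 5.02% ± 0.539) and with no mitochondrial limit (5.74% ± 0.288 and 5.07% ± 0.556). T2D library 3 was the lowest in each of these 3 classes and in B cells. As sums over chosen genes, the shares carry no test. For reference, 6.24%, 6.84% and 5.43% of all genes tested in CD4, CD8 and other T cells had every T2D library below every Con library.

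Gene by gene, 5 mtDNA-encoded members fell in CD4 T cells, where 5.88% of 9290 genes were called and 3.21% were called lower (edgeR's quasi-likelihood test on summed counts, Benjamini-Hochberg adjusted over all genes). mt-Nd4, a proton-pumping core subunit of complex I, stood at 6252, 6353 and 6919 CPM in Con and at 5637, 5588 and 5077 in T2D, a log2 fold change of -0.33 (SE 0.0726, adjusted p = 0.0029). mt-Cytb, the catalytic cytochrome b of complex III, stood at 10023, 10083 and 10895 in Con and 9035, 8860 and 8002 in T2D (-0.33, SE 0.0734, adjusted p = 0.0033). For both genes every T2D library was below every Con library. mt-Nd1, mt-Nd5 and mt-Nd6, further core subunits of complex I, fell by 0.31, 0.32 and 0.35 on the log2 scale. The call of mt-Nd1 was lost without Con library 2 or 3 and that of mt-Nd5 without Con library 1. mt-Co1, the catalytic core of complex IV, gave -0.16 (adjusted p = 0.20) and mt-Nd2 gave -0.25 (adjusted p = 0.25), neither past the threshold. Of the 10 mtDNA-encoded members tested, all had a negative fold change, with a median of -0.33, beside a median of -0.0005 over all genes.

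In CD8 T cells the same test called 5 mtDNA-encoded members lower and 1 nuclear member higher, against 3.49% of 10045 genes called, 1.8% called lower and 1.69% called higher. mt-Nd4 went from 6679, 6856 and 7547 CPM in Con to 6101, 6149 and 5501 in T2D libraries (log2 change -0.30, SE 0.0669, adjusted p = 0.010), and mt-Cytb from 9250, 9418 and 10267 to 8555, 8185 and 7579 (-0.30, SE 0.0657, adjusted p = 0.0077). The T2D libraries lay below the Con libraries in both. mt-Nd5 and mt-Nd6 fell by 0.31 and 0.29. The call of mt-Nd6 was lost without any 1 library other than T2D library 1, those of mt-Nd4 and mt-Cytb without Con library 2 or 3, and that of mt-Nd5 without Con library 1. mt-Nd3, one of the low-count genes with a near-identical nuclear copy, gave -0.61 (SE 0.110, adjusted p = 0.0012), from 56.8, 56.0 and 66.6 to 36.7, 43.8 and 41.4. When T cells with a UMI of any of 12 effector or regulatory genes (among them Ccl5, Nkg7, Gzmb and Foxp3) were left out, a setting added after seeing the data, 304 of 2108 Con and 310 of 3475 T2D CD8 T cells remained and no member was called, where 0.183% of 4923 genes were. The shares of mtDNA-encoded UMIs were then 5.89% ± 0.192 and 5.53% ± 0.604 and overlapped, and mt-Cytb gave -0.14 (adjusted p = 0.62). Among CD4 T cells 935 of 1560 and 956 of 2541 remained, and 4 members were called lower, mt-Cytb at -0.27, where 0.799% of 7759 genes were called lower.

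Other transcripts moved with the T cell result. The NK check markers (Gzma, Prf1, Eomes, Klrk1, Tyrobp) summed to 252 to 380 CPM in Con CD8 T cells and to 560 to 789 in T2D, and to 52.7 to 63.9 and 87.9 to 134 in CD4 T cells. The red cell list, 4 globin genes and Alas2, summed to 115 to 435 and 655 to 2019 in CD4 T cells. In CD8 T cells the red cell list summed to 99.6 to 627 in Con and 332 to 2065 in T2D, with overlap. The share of UMIs from cytosolic ribosomal protein genes was 16.9% ± 0.167 in Con and 15.0% ± 0.492 in T2D CD4 T cells, and 19.6% ± 0.156 and 17.9% ± 0.213 in CD8 T cells, without overlap in either. In other T cells the NK check markers summed to 195 to 257 CPM in Con and 266 to 395 in T2D, the red cell list to 107 to 182 and 1607 to 5706, and ribosomal protein genes took 17.2% ± 0.686 and 15.8% ± 0.268. The part of these in the mtDNA-encoded result was not tested beyond the setting without effector or regulatory transcripts. Leaving out 1 library moved the number of members called from 5 to between 4 and 9 in CD4 T cells, the 9 (5 lower and 4 higher) without T2D library 3, and from 6 to between 2 and 7 in CD8 T cells, with 3, 3 and 2 called without Con library 1, 2 or 3. Without T2D library 3, 184 of 9386 genes were called lower and 174 higher in CD4 T cells.

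In other T cells edgeR called no member, where 1.02% of 8258 genes were called, although 11 members had an unadjusted p under 0.05. DESeq2 called 5 members, all lower, where it called 61 of 15415 genes lower. The 15415 are all genes with at least 1 UMI, including any that DESeq2's own filter left without an adjusted p. mt-Cytb was the closest, at 9335, 10155 and 10514 CPM in Con and 8949, 8779 and 7833 in T2D libraries (log2 change -0.29, SE 0.0793, adjusted p = 0.062 by edgeR).

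**Figure D3:**
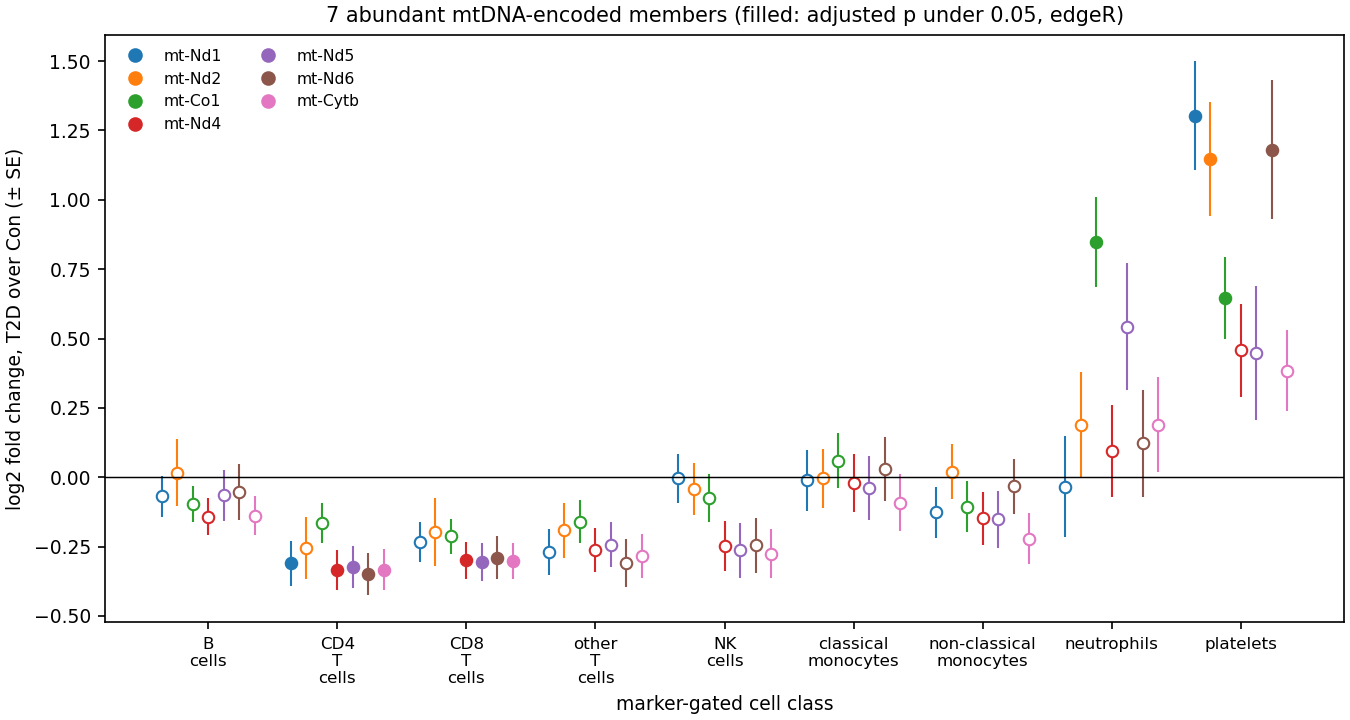
Log2 fold change of T2D over Con (± SE) of the 7 abundant mtDNA-encoded members in 9 cell classes, from edgeR on sums of 3 libraries per group, with filled points for an adjusted p under 0.05. Points lie below 0 in the 3 T cell classes and in NK cells and above 0 in platelets. Filled points occur in CD4 T cells, CD8 T cells, neutrophils and platelets.

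B cells, the largest class with 3207 to 4559 cells per library, had 1 member called between the groups. Their mtDNA-encoded share was 5.35% ± 0.256 in Con and 5.10% ± 0.436 in T2D and overlapped. The nuclear-encoded shares, 0.699% ± 0.0124 and 0.708% ± 0.0372, overlapped as well. Of 94 members tested, mt-Nd3 alone passed, against 1.55% of 11508 genes, with 45.9, 43.2 and 50.8 CPM in Con and 33.8, 40.2 and 36.2 in T2D libraries (log2 change -0.36, SE 0.0865, adjusted p = 0.044 by edgeR). It was not called by DESeq2, nor without Con library 1, 2 or 3, T2D library 1 or T2D library 3. Of the 13 mtDNA-encoded members tested in B cells, 12 had a negative fold change, with a median of -0.14, beside -0.0009 over all genes.

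Whether T cells changed differently from B cells was tested as an interaction within libraries (edgeR, library as a block, all genes adjusted together). In CD4 T cells 6 of 12 mtDNA-encoded and 0 nuclear members differed, against 2.77% of all genes. The differences were -0.30 for mt-Nd6 (SE 0.042, adjusted p = 1.0e-06), -0.28 for mt-Nd2, -0.26 for mt-Nd5, -0.25 for mt-Nd1, -0.20 for mt-Cytb and -0.19 for mt-Nd4. In CD8 T cells the same 6 genes passed, from -0.23 for mt-Nd5 and mt-Nd6 to -0.15 for mt-Nd4, against 1.18% of all genes. mt-Co1 did not pass in either, at -0.07 (adjusted p = 0.45) and -0.11 (adjusted p = 0.14). In other T cells 1 member differed, mt-Nd6, at -0.25 (background 0.517%), a call lost without any 1 of Con libraries 2 and 3 and the T2D libraries, while 3 members passed without Con library 1. Without Con library 2, 3 members remained past the threshold in CD8 T cells. No member passed in NK cells (background 0.328%), classical monocytes (0.249%) or non-classical monocytes (0.212%).

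Of the nuclear members, 1 was called in 1 class. In CD4 T cells edgeR called 0 of 78 tested (5 at an unadjusted p under 0.05), and their median log2 fold change was 0.0034. Without T2D library 3, 4 were called higher, among them Ndufa12 (0.70), Cox8a (0.37) and Cox6b1 (0.35), subunits of complexes I and IV. In that setting 174 of 9386 genes were called higher. Of the 78, 15 had every T2D library above every Con library, or close to the 17.8% of all genes. In CD8 T cells, where 1.69% of 10045 genes were called higher, 1 of 79 was called, Ndufa12, an accessory subunit of complex I. It stood at 62.2, 67.0 and 57.2 CPM in Con and 91.7, 92.2 and 74.7 in T2D, without overlap, a change of 0.43 on the log2 scale (SE 0.102, adjusted p = 0.017). In CD4 T cells the same gene gave 0.49 (SE 0.151, adjusted p = 0.053). The CD8 call was lost with DESeq2, with the stricter gate and a dominance gate (the own list larger than all others together), without effector or regulatory transcripts, and without Con library 1 or 3 or T2D library 1 or 2. Cox4i1, the abundant form of cytochrome oxidase subunit 4, stood at 395, 382 and 374 in Con CD8 T cells and 405, 408 and 402 in T2D, without overlap, but its TMM-scaled fold change was 0.03 (SE 0.0615, adjusted p = 0.89). Atp5a1 and Cox7a2l gave fitted changes of 0.01 and -0.03 there and overlapped. The nuclear genes grouped by symbol as complex I summed to 2444 ± 42.8 CPM in Con CD4 T cells and 2628 ± 151 in T2D. Those of complex V summed to 2609 ± 45.1 and 2745 ± 93.0. These sums, unlike the fitted fold changes, are not TMM-scaled, and without TMM the median of all genes in CD4 T cells shifted by 0.08 on the log2 scale.

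**Figure D4:**
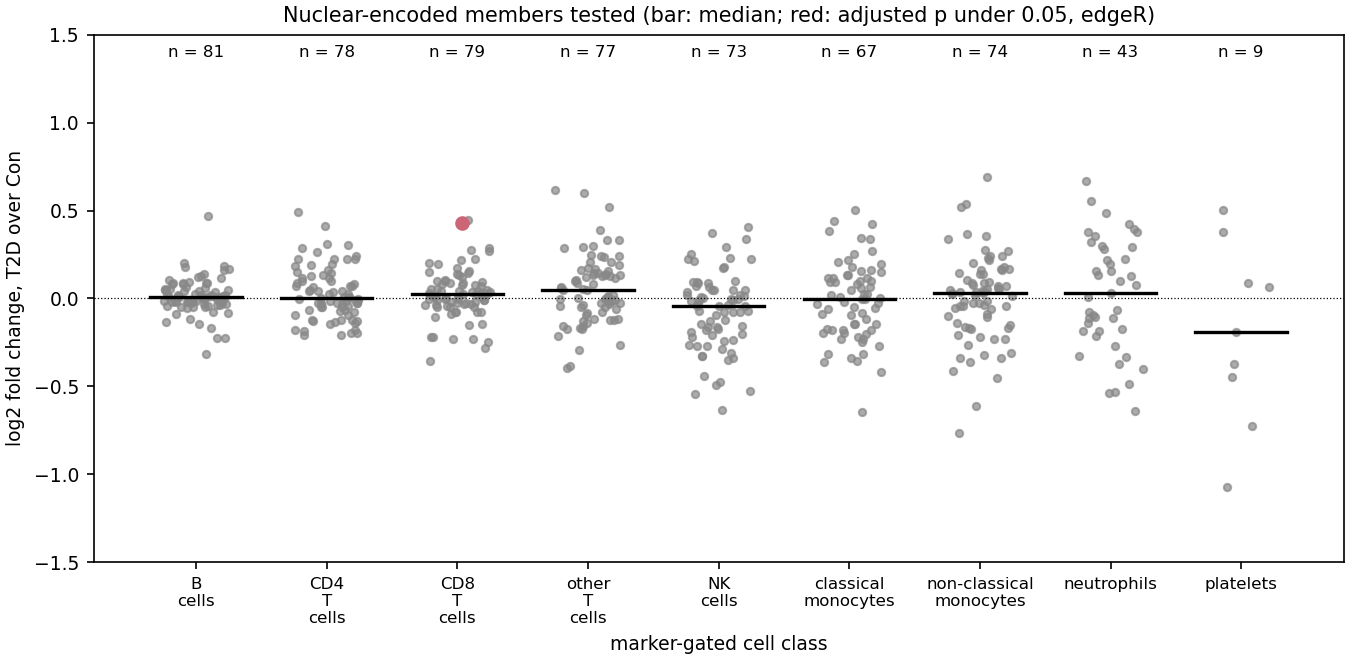
Log2 fold change of T2D over Con for each nuclear-encoded member tested, in 9 cell classes (points: genes; bar: median; number tested above). The medians lie near 0 except in platelets, where only 9 genes were tested, and the single red point is Ndufa12 in CD8 T cells. In CD8 T cells 1.69% of all genes tested were called higher.

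NK cells and monocytes gave no called member. NK cells had 2.91% ± 0.130 mtDNA-encoded UMIs in Con and 2.64% ± 0.175 in T2D, with overlap, and 0 of 81 members called by edgeR or DESeq2 (8 at an unadjusted p under 0.05 by edgeR), against 0.201% of all genes. All 8 mtDNA-encoded members tested in NK cells had a negative fold change, with a median of -0.25, beside -0.0012 over all genes. mt-Cytb there gave -0.28 (adjusted p = 0.25), and the nuclear member with the lowest adjusted p was Sdhd, the membrane anchor of complex II, at -0.55 (SE 0.197, adjusted p = 0.38). Classical monocytes held 2.97% ± 0.299 and 2.93% ± 0.0818, and 0 of 74 members were called by either tool (1 at an unadjusted p under 0.05, background 0.438%). Atp5k came closest, at 0.44 (adjusted p = 0.72). Non-classical monocytes held 2.51% ± 0.0870 and 2.35% ± 0.119 and had 0 of 82 called by either tool (5 at an unadjusted p under 0.05, background 0.805%), with Ndufb10 closest at -0.61 (adjusted p = 0.29). Their ratio of mtDNA-encoded to nuclear-encoded UMIs was 3.11 ± 0.117 in Con and 2.82 ± 0.0390 in T2D, without overlap, and in cells of 1000 to 5000 UMIs it was 3.21 ± 0.152 and 3.05 ± 0.133, with overlap. The red cell list summed there to 130 to 157 CPM in Con and 271 to 3249 in T2D, and the platelet gate markers to 23.8 to 39.4 and 7.49 to 14.2, and their part in the ratio was not tested.

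In neutrophils 1 of 50 members tested was called, mt-Co1, which rose. The count was close to the share called among all genes, 2.26% of 3229, with 0.805% called higher. It stood at 755, 608 and 740 CPM in Con and at 1262, 1368 and 1104 in T2D, a log2 fold change of 0.85 (SE 0.163, adjusted p = 0.0019). Every T2D library was above every Con library, as for 7.8% of all genes tested there, and the effect differed from that in B cells by 0.96 (SE 0.179, adjusted p = 7.6e-05, background 0.332%). The other abundant mtDNA-encoded genes did not pass, with mt-Nd1 at -0.03 and mt-Nd4 at 0.09. mt-Nd5 stood at 284, 209 and 145 CPM in Con and 252, 374 and 317 in T2D, with overlap, and gave 0.54 (SE 0.229, adjusted p = 0.31 by edgeR), or 0.65 (adjusted p = 0.017) with the dominance gate. The mtDNA-encoded share, 0.439% ± 0.0837 against 0.521% ± 0.0494, overlapped, whereas with the dominance gate it was 0.788% ± 0.0713 and 1.02% ± 0.0627, without overlap. The last 483 bases of mt-Co1 are those with a near-identical nuclear copy. In the same libraries the neutrophil gate markers summed to 14599 to 16022 CPM in Con and 18990 to 22146 in T2D, and their part in the result was not tested. With the stricter gate the change was 0.21 and not called.

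In platelets, which carry mitochondria but no nucleus, the mtDNA-encoded share was higher in T2D. It was 1.07%, 0.926% and 1.23% in Con and 1.85%, 1.77% and 1.51% in T2D, without overlap, while the nuclear-encoded share was 0.652% ± 0.0614 and 0.645% ± 0.0610. The ratio of the 2 rose in mean from 1.66 ± 0.238 to 2.65 ± 0.161 mtDNA-encoded UMIs per nuclear-encoded UMI. Of 16 members tested, 4 rose, against 1.05% of 857 genes called and 0.933% called higher. mt-Nd1 went from 1058, 754 and 1266 CPM to 2951, 2445 and 2017 (log2 fold change 1.30, SE 0.196, adjusted p = 3.5e-05). mt-Nd2 rose by 1.15, mt-Nd6 by 1.18 and mt-Co1 by 0.65. For these 4 and mt-Cytb every T2D library was above every Con library, as for 8.05% of all genes tested. Against B cells the effect differed by 1.30 for mt-Nd1 (SE 0.200, adjusted p = 1.0e-06), 1.19 for mt-Nd6 and 1.06 for mt-Nd2, where 0.0374% of all genes differed. Without Con library 2, 1 of these differences remained past the threshold. None of the 9 nuclear members tested was called (2 at an unadjusted p under 0.05), and Atp5e gave 0.50 (adjusted p = 0.33 by edgeR).

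The platelet result rested on 45 to 87 barcodes and 44612 to 76924 UMIs per library and depended on the gate. With the dominance gate, which kept 338 Con and 330 T2D barcodes, the mtDNA-encoded shares were 2.34% ± 0.735 and 2.43% ± 0.442, and no member was called, where 1 of 2670 genes was. None was called with the strict gate (1.08% ± 0.168 and 1.24% ± 0.236), where 2 of 437 genes were called higher and 1 lower. In the 54 Con and 49 T2D barcodes of 1000 to 5000 UMIs the shares were 0.954% ± 0.216 and 1.64% ± 0.547, with overlap, and no member was called. The cell filter of 20% mitochondrial UMIs uses the members themselves. With a limit of 10%, 1 member was called, and without a limit 2. Leaving out Con library 2, T2D library 1 or T2D library 2 left 2, 2 and 1 called. The platelet gate markers summed to 37671 to 41314 CPM in Con and 25845 to 32911 in T2D, the T cell check markers to 247 to 549 and 616 to 1367, and the red cell list to 988 to 1313 in Con and 1188 to 37650 in T2D, with the highest in library 2. Ribosomal protein genes took 1.40% ± 0.358 and 2.16% ± 0.359. The part of these in the result was not tested.

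**Figure D5:**
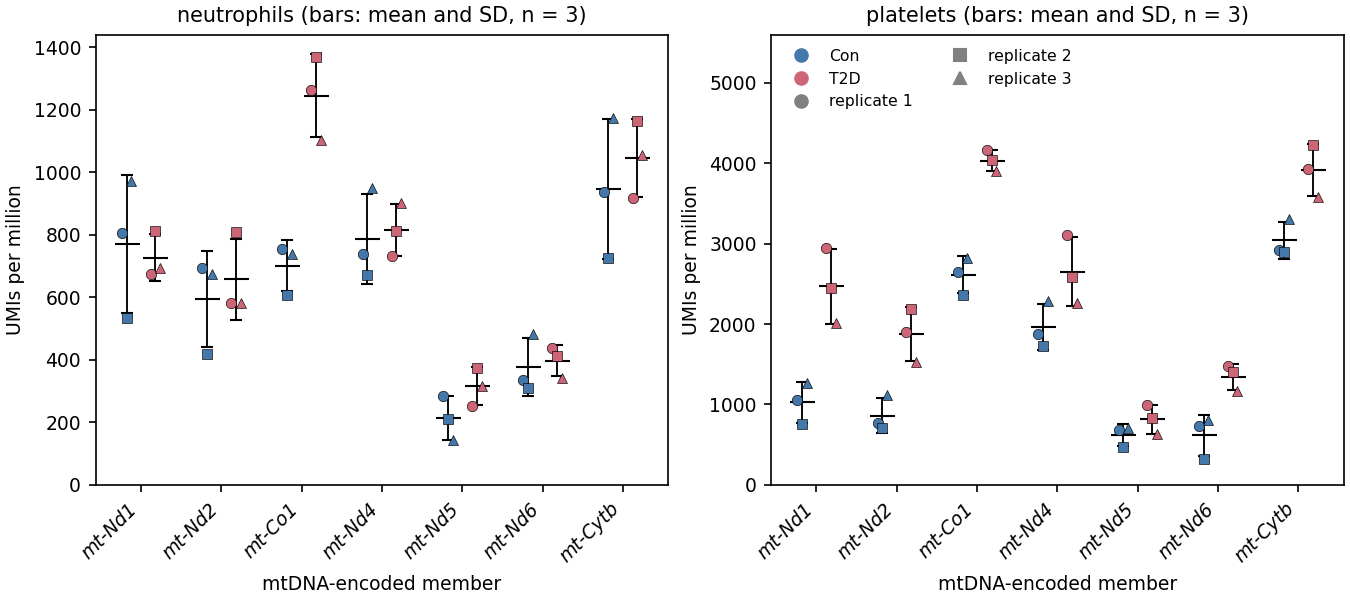
CPM of the 7 abundant mtDNA-encoded members in neutrophils and platelets, by library (blue Con, red T2D; bars: mean and SD of 3). In neutrophils mt-Co1 alone is separated between the groups, with Con at 608 to 755 and T2D at 1104 to 1368, and in platelets mt-Nd1, mt-Nd2, mt-Co1, mt-Nd6 and mt-Cytb are. Of all genes tested, 7.8% in neutrophils and 8.05% in platelets had every T2D library above every Con library.

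Genes that build or supply the complexes were compared in the same fits, in which 5.88% of all genes were called in CD4 and 3.49% in CD8 T cells. Of the assembly factors, 0 of 39 tested passed in CD4 T cells and 0 of 40 in CD8 T cells, and in classical monocytes 1 of 7 fell, Sdhaf1, an assembly factor of complex II, from 92.3 ± 10.7 to 23.7 ± 9.66 CPM (log2 fold change -1.83, SE 0.356, adjusted p = 0.0094). No gene of mtDNA expression and upkeep, such as Tfam and Polrmt, passed in CD4 (13 tested) or CD8 T cells (14 tested), nor any of 13 TCA cycle enzymes in either. Ucp2, an uncoupling protein family member of the inner membrane, rose in CD4 T cells by 0.29 (SE 0.0689, adjusted p = 0.0062), from 774 ± 21.4 to 1001 ± 56.7, and in non-classical monocytes by 0.40 (SE 0.0955, adjusted p = 0.022). Yy1, a transcription factor of mitochondrial genes among many others, fell by 0.38 in CD4 T cells, and Slc25a4, an ADP/ATP carrier, fell by 0.33 in B cells. Of the mitochondrial ribosomal proteins 1 of 74 passed in CD4 T cells, Mrpl27, which rose by 0.73. Of the cytosolic ribosomal proteins, 45 of 91 fell in CD4 T cells and 16 of 91 in CD8 T cells, with list medians of -0.24 and -0.18, 1 of 90 (Rpl36a) fell in other T cells, and none passed as higher in the 9 classes. In platelets 46 were tested and none was called, with a list median of 0.73. Glycolysis genes gave 0 of 14 in CD4 and 0 of 16 in CD8 T cells, and in B cells 1 of 16 fell, the glucose transporter Slc2a1, by 0.39. Neither of the 2 electron carrier genes, Cycs and Cyc1, nor any of the mitochondrial stress genes (8 tested in CD4 and 9 in CD8 T cells) was called. The mitochondrial ribosomal RNAs were not analysed here.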

How the data were processed

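Per the labels' protocols, mononuclear cells were isolated by Ficoll centrifugation with red cell lysis, and 3′ whole-transcriptome libraries were made with the BD Rhapsody system. Per the submitters' processing notes, the tools were CASAVA 1.8, UMI-tools and Seurat, with build mm10. No aligner, annotation or strand setting is named. Each library has 1 deposited matrix of whole, unnormalized UMI counts. No pair of libraries was a duplicate (chi-square over degrees of freedom 10.1 or more).

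Barcodes with 200 or more genes and no more than 20% of UMIs from mtDNA were gated by marker lists, with T cells split by Cd4, Cd8a and Cd8b1 and monocytes by the larger of a classical and a non-classical list. No doublet caller was run, and cells with over 1 UMI of another lineage's list were left out. Raw counts were summed per library and class. Con and T2D sums were compared with edgeR 4.0.16 (R 4.3.3; TMM, filterByExpr, robust quasi-likelihood, Benjamini-Hochberg adjustment over all genes tested, threshold 0.05), and DESeq2 1.42.0 served as an alternative, as did other scalings, gates, filters and left-out libraries. The edgeR script was tested on simulated counts. CPM use the class total. Shares are given with no test. In bulk sums of a class, fewer cells of a subtype and less RNA per cell cannot be told apart. Nuclear copies were sought by blastn in GENCODE transcripts of GRCm38, for mtDNA-encoded members only.

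The members and gene lists were chosen with earlier results of these data known. Named are all mtDNA-encoded members, per class the called nuclear members (at most 5 per direction) or else the one with the lowest adjusted p, the nuclear member of each complex with the most UMIs in B cells, isoform sets, and, in class contrasts, members among the 3 highest and 3 lowest. Genes of other pathway lists were named when called.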

Additional observations from a re-analysis of the deposited data

Results flagged for a closer look

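The effect of T2D on 17 class and gene pairs differed from that in B cells of the same libraries, by edgeR's test of the interaction (log2 scale, class minus B cells, adjusted p under the threshold over all genes). In CD4 T cells the differences were -0.25 for mt-Nd1, -0.28 for mt-Nd2, -0.19 for mt-Nd4, -0.26 for mt-Nd5, -0.30 for mt-Nd6 and -0.20 for mt-Cytb. In CD8 T cells they were -0.16 for mt-Nd1, -0.21 for mt-Nd2, -0.15 for mt-Nd4, -0.23 for mt-Nd5, -0.23 for mt-Nd6 and -0.16 for mt-Cytb. In other T cells the difference was -0.25 for mt-Nd6. In neutrophils mt-Co1 differed by 0.96. In platelets mt-Nd1 differed by 1.30, mt-Nd2 by 1.06 and mt-Nd6 by 1.19. All 17 are mtDNA-encoded. Of all genes tested, 2.77% differed in CD4 T cells, 1.18% in CD8 T cells and 0.517% in other T cells. The share was 0.332% in neutrophils and 0.0374% in platelets. With the strict gate no member differed from B cells in other T cells, neutrophils or platelets.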

How the results depend on the processing

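Of the share ratios and counts of called members, 532 values under alternatives stayed within the spread between replicates or within 1.5 times the count, 65 moved further, and no direction called by a test was reversed. For the fold changes of named genes, 2862 values kept their side of the threshold, 34 newly passed it and 64 lost it. The causes were not tested. Without effector or regulatory transcripts (added after seeing the data), the log2 ratio of T2D to Con was -0.232 for mtDNA-encoded per nuclear-encoded UMI in CD4 T cells, -0.0908 for the mtDNA-encoded share and -0.175 for that ratio in CD8 T cells, and 0.0372 for the nuclear-encoded share in other T cells, and 0 members were called in CD8 and 3 in other T cells. In that setting 9 of 5307 genes were called higher and 23 lower in other T cells. With the strict gate, the log2 ratio was 0.0144 for UMIs of the 2 genomes in NK cells, -0.00659 (mtDNA-encoded share) and -0.0856 (per nuclear-encoded UMI) in neutrophils, and 0.196 and 0.234 in platelets, with 0 members called in neutrophils and in platelets and 0 differing from B cells in other T cells, neutrophils or platelets. With the dominance gate, the same 2 log2 ratios were -0.174 and -0.221 in non-classical monocytes and 0.0574 and 0.0174 in platelets, with 3 members called in other T cells, 2 in neutrophils and 0 in platelets, and 4 in neutrophils and 0 in platelets differing from B cells. That gate called 69 of 8919 genes higher and 83 lower in other T cells, and 53 of 6046 higher and 69 lower in neutrophils. In cells of 1000 to 5000 UMIs, the ratio of the 2 genomes moved to 0.0975 in classical and -0.0732 in non-classical monocytes, 1 member was called in other T cells and 0 in platelets, and 3 in CD8 T cells and 0 in platelets differed from B cells. In that range 27 of 7379 genes were called higher and 54 lower in other T cells. Means of per-cell shares gave 0.171 (mtDNA-encoded share) and 0.213 (per nuclear-encoded UMI) in classical monocytes. A mitochondrial limit of 10% gave 0.427 and 0.444 and 1 called member in platelets, and no limit gave 2. Over all genes in platelets, 1 of 835 was called higher with that limit. Without a limit 3 of 877 were called higher and 1 lower. DESeq2 called 0 members in B cells, 5 in other T cells and 2 in platelets. Over all genes it called 17 higher and 61 lower in other T cells, and 2 higher and 0 lower in platelets. Without a filter on low counts 2 were called in other T cells, where 68 of 15415 genes were called higher and 65 lower. Without TMM 8 were called in CD4 T cells, of which 3 were higher and 5 lower, where 437 of 9290 genes were called higher and 154 lower. Leaving out 1 library gave 0 to 1 called in B cells, 4 to 9 in CD4, 2 to 7 in CD8 and 0 to 2 in other T cells, and 1 to 4 in platelets. Members differing from B cells then numbered 3 to 6 in CD8 T cells, 0 to 3 in other T cells, 1 to 2 in neutrophils and 1 to 3 in platelets. For differences from B cells under alternatives, no share of all genes is given. The strict platelet gate kept 114 Con and 81 T2D barcodes, and with the main gate the platelet sums held 44612 to 76924 UMIs per library.

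The labels do not say that equal replicate numbers share anything, so the numbers were not taken to pair the libraries. Deviations of same-numbered libraries correlated at 0.0131 to 0.0640 in B cells, 0.0034 to 0.0693 in CD4 and 0.0239 to 0.0339 in CD8 T cells. Those of different-numbered libraries correlated at -0.0498 to 0.0336, -0.0769 to 0.0482 and -0.0547 to 0.0235. These values do not settle whether the libraries are paired. With the replicate block, 7 members were called in CD4 and 7 in CD8 T cells, the number called in each other class was the same, and the log2 ratio of the mtDNA-encoded share was -0.216 in CD4 and -0.208 in CD8 T cells. Over all genes, the block raised the calls in B cells to 321 higher and 289 lower of 11508, from 85 and 93. In CD4 T cells they rose to 336 and 377 of 9290, from 248 and 298. In CD8 T cells they rose to 276 and 269 of 10045, from 170 and 181.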
